A study of Mus musculus with 6 samples.

Results

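The integrins, the classical cadherins and the proteins that tie both to the cell skeleton were followed in neural stem cells grown from mouse brain, precursors that divide and give rise to neurons and glia. The set was drawn by gene symbol from the deposited expression table: integrin alpha subunits with a number or the letter v, numbered integrin beta subunits, numbered cadherins other than Cdh20, and 13 named catenin and focal adhesion genes. It holds 55 of the 54884 entries, made up of 12 alpha subunits, 8 beta subunits, 22 cadherins, 5 catenins and 8 focal adhesion genes. The rule used names only, but it was set with earlier results of these data known.

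Cells of C57BL/6J mice were taken from the hippocampus at embryonic day 14 and used between the 3rd and 8th passage. They carried a lentivirus with either an siRNA against circHIPK2, a circular RNA of the Hipk2 gene, or a control siRNA called circCon, so that both groups were transduced and no untransduced cells were among the samples. Poly(A) RNA was sequenced from 3 libraries per group. No entry of the table is named for the circular RNA, so its knockdown was not checked here. Nothing states that these were separate cultures, so the p-values measure only the spread between libraries, which may be technical.

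Integrins are receptors made of an alpha and a beta chain that bind matrix proteins outside the cell. Inside, the beta tail recruits talin and kindlin, and through them kinases, paxillin, vinculin and actin. Classical cadherins bind cadherins of neighbouring cells, and their tails hold p120-type catenins and, through beta-catenin or plakoglobin, alpha-catenin and actin. In the germinal zones of the brain, beta 1 integrin anchors radial glia to laminin and N-cadherin holds together the junctions that line the ventricle.

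The 3 beta subunits at 1 FPKM or more were Itgb1, Itgb5 and Itgb8, and their coding tails are shown because in beta 1 this stretch is where talin and kindlin bind. The last 150 coding bases of each gene's principal transcript, stop codon included, were read 5′ to 3′ from GENCODE M21 on the GRCm38 build. They lie in the exons of chr8:128726103-128732088 on the plus strand for Itgb1, chr16:33947828-33948752 on the plus strand for Itgb5 and chr12:119163117-119163363 on the minus strand for Itgb8. Capitals mark in-frame codons for asparagine, any residue, any residue and tyrosine, the NxxY pattern.
Itgb1: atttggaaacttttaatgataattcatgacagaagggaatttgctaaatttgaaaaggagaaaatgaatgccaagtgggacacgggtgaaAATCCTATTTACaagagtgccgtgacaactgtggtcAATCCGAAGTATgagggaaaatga
Itgb5: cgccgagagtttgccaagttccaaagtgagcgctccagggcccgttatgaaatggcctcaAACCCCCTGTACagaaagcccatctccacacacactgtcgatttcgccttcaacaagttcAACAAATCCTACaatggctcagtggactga
Itgb8: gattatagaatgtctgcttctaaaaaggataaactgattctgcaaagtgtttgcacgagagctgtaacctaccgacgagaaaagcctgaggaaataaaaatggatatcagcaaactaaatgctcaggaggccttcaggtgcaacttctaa

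Itgb1 held 2 such patterns, both with proline in the second place (NPxY). Itgb5 held 2, of which 1 was NPxY, and Itgb8 held 0. Among the tails of 21590 coding genes, 4.77% held an NxxY pattern and 0.375% an NPxY pattern. This is a description of the reference sequence and not a measurement of these libraries.

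The values are FPKM (fragments scaled to transcript length in kilobases and to each 1000000 fragments mapped), as the authors deposited them, and can be compared between genes because they are set per length. Depth, read from the steps of low values, lay between 18430000 and 20990000 fragments in the siRNA libraries and between 19880000 and 21900000 in the controls, at which 1 fragment of a 1 kb transcript is worth 0.0457 to 0.0543 FPKM. A list of 9 entries, called ribosomal RNA locus entries here, also includes the protein-coding gene Lars2. Lars2 had 483, 149 and 758 FPKM in siRNA libraries 1 to 3 and 23.4, 18.4 and 16.1 FPKM in control libraries 1 to 3. Together the 9 took 11.5%, 3.24% and 19.9% of all FPKM in siRNA libraries 1 to 3, against 0.58%, 0.43% and 0.32% in control libraries 1 to 3. The part of this difference in the results was not tested. Over all 13702 entries whose mean reached 1 FPKM the median log2 fold change was −0.12, siRNA over control, so changes are also given relative to it. Of these entries 0.117% were called higher and 0.139% lower with the siRNA at an adjusted p below 0.05 (limma, Benjamini-Hochberg). Of the 16 called higher, 8 were in the list of 9 ribosomal RNA locus entries. Of the 19 called lower, 8 were the hepatocyte markers given below.

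Of 10 neural stem cell markers, 8 had a mean of 1 FPKM or more, and Prom1 and Fut4 did not. Vim, an intermediate filament gene of neural precursors, had 620, 662 and 597 FPKM in siRNA libraries 1 to 3 and 605, 386 and 530 FPKM in control libraries 1 to 3. The neural stem cell filament gene Nes had 63.3, 77.0 and 72.6 FPKM with the siRNA and 82.2, 64.1 and 85.3 FPKM in the controls. All 10 stem cell markers summed to 1728 to 2176 FPKM with the siRNA and 1905 to 2449 FPKM in the controls, and 0 of the 8 tested passed. For 2 of the 8 every siRNA library was below every control, and for 0 above, where 22.1% and 2.65% of all entries did so. These were Fabp7, at 881, 793 and 592 against 1127, 1545 and 946 FPKM, and Hes5, at 11.3, 9.58 and 9.34 against 16.9, 19.2 and 15.4 FPKM. Relative to the median of all entries, 6 of the 8 lay above and 2 below. The 8 endothelial markers summed to 0.272 to 0.479 FPKM with the siRNA and 0.39 to 0.502 FPKM in the controls, the 8 leukocyte markers to 0.329 to 0.49 and 0.262 to 0.572 FPKM, and the 8 fibroblast and pericyte markers to 0.224 to 0.338 and 0.251 to 0.394 FPKM. The leukocyte genes Ptprc, Cx3cr1 and C1qb were listed at 0 in all libraries. The 8 erythroid and platelet markers summed to 0.551 to 0.785 and 0.6 to 0.805 FPKM, and the 8 epithelial markers to 1.55 to 2.83 and 2.04 to 3.06 FPKM. Markers of other neural cells were above these levels: the 8 neuron markers summed to 97.5 to 112 FPKM with the siRNA and 126 to 136 FPKM in the controls, most of it Map2, and the 8 oligodendrocyte markers to 68.5 to 119 and 98.4 to 123 FPKM. The 8 hepatocyte markers summed to 2.08 to 2.21 FPKM with the siRNA and 35.2 to 58.6 FPKM in the controls, and 8 of 8 passed as lower.

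Of the 55 adhesion genes, 30 had a mean of 1 FPKM or more and were tested, and 0 of the 30 were called, against 0.255% of all entries. At an unadjusted p below 0.05, 2 were higher and 4 lower, where all entries gave 1.83% and 15.5%. These were Itga7 and Ptk2, with higher means in the siRNA libraries, and Ctnnd2, Cdh10, Itga4 and Cdh6, with lower means. The smallest adjusted p was 0.106, for Cdh10 (limma, Benjamini-Hochberg). For 1 of the 30 every siRNA library was above every control, and for 3 every siRNA library was below, where 2.65% and 22.1% of all entries did so. With median-of-ratios scaling, which sets the typical entry to no change, these counts were 6 and 3 of 30, beside 10.1% of all entries in each direction. The median log2 fold change of the 30 was −0.16, 0.04 below the median of all entries, and 13 of the 30 lay above that median and 17 below.

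**Figure D1:**
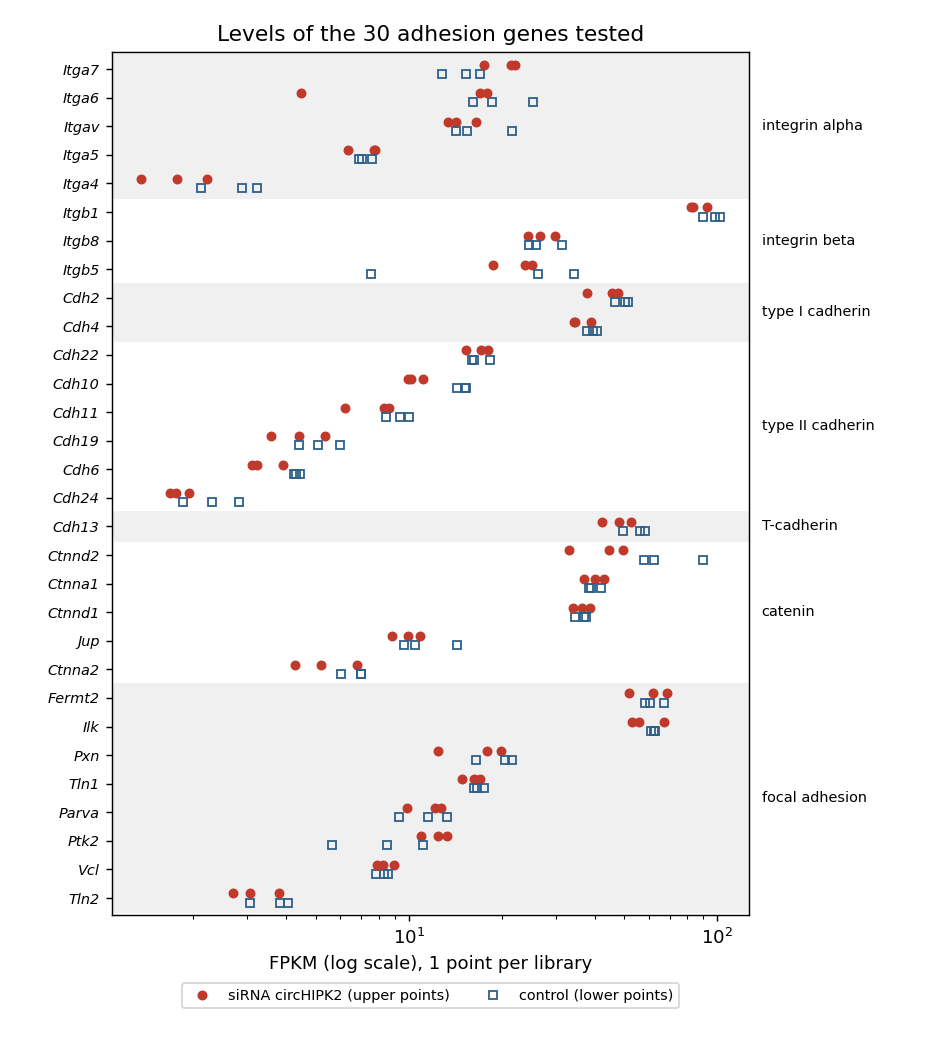
FPKM of the 30 tested adhesion genes on a log axis, 1 point per library, with siRNA circHIPK2 libraries as upper filled points and control libraries as lower open squares, grouped by role and ordered by mean level. Itgb1 had the highest mean in both groups, with Ctnnd2 just above it in control library 1 (90.1 and 89.9 FPKM), and siRNA library 1 for Itga6 and control library 3 for Itgb5 stand apart from the other libraries of those genes.

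**Figure D2:**
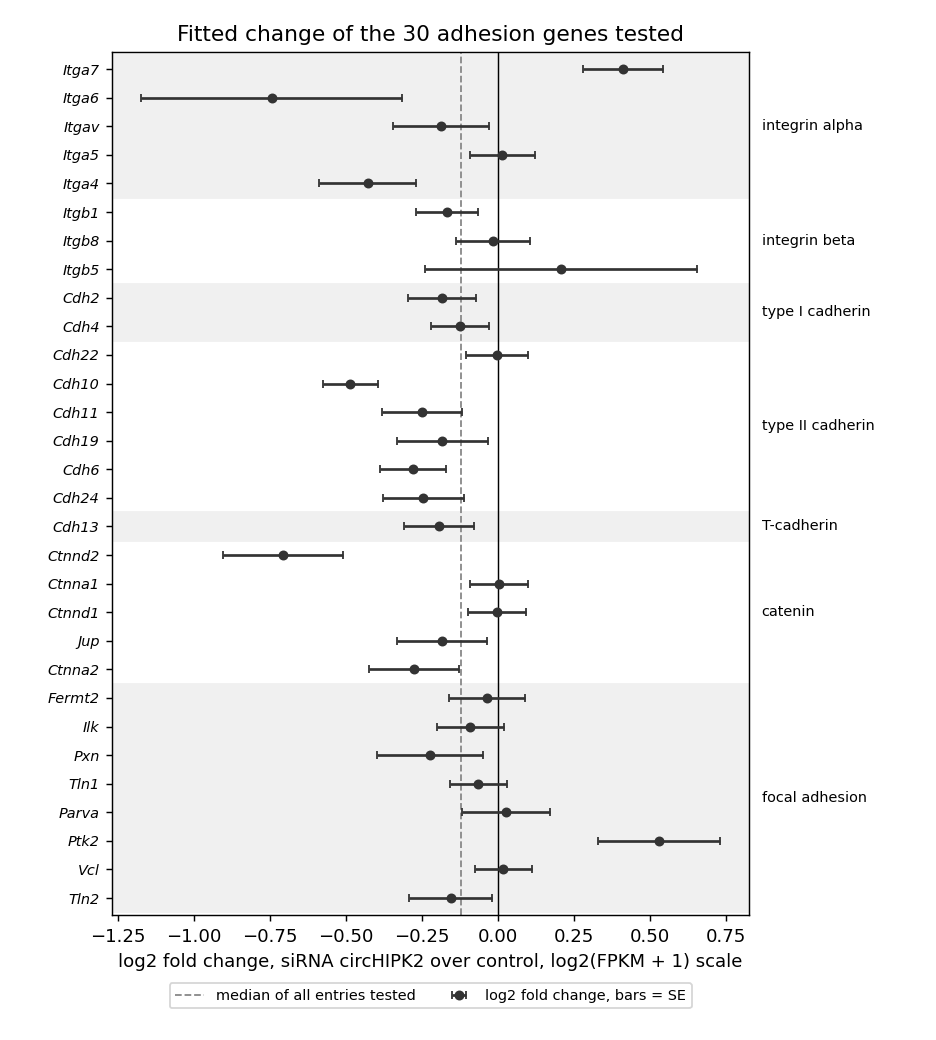
Fitted log2 fold change of each tested gene, siRNA circHIPK2 over control, on the log2(FPKM + 1) scale, with bars of 1 SE. The dashed line is the median of all entries tested at −0.12; the points run from −0.74 for Itga6 to 0.53 for Ptk2, and none passed the test.

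Levels spanned the set in a similar order in both groups. Itgb1 had the highest mean, at 86.0 ± 5.61 FPKM with the siRNA and 96.6 ± 6.11 FPKM in the controls (SD, n = 3 each). Ilk, Fermt2, Cdh13 and Cdh2 followed with means between 43.6 and 60.8 FPKM with the siRNA and between 49.4 and 62.0 FPKM in the controls, and Ctnnd2 lay in sixth place with the siRNA and in second place in the controls. From Itgb8 down to Cdh10 in the control order, passing Itgb5, Itga6, Pxn, Itgav, Cdh22, Tln1 and Itga7, each gene differed from the next by less than the sum of their SDs.

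Among the alpha chains, Itga7, a laminin receptor subunit that pairs with beta 1, had 21.4, 22.1 and 17.5 FPKM in siRNA libraries 1 to 3 and 15.3, 17.0 and 12.8 FPKM in control libraries 1 to 3. The groups did not overlap, although siRNA library 3 and control library 2 lay 0.485 FPKM apart. The mean was 20.3 ± 2.47 FPKM with the siRNA and 15.0 ± 2.13 FPKM in the controls (SD, n = 3 each), a 1.35-fold difference. The log2 fold change was 0.41 (SE 0.13) and missed the threshold (Benjamini-Hochberg adjusted p = 0.207 by limma), and the exact two-sided permutation p was 0.1, the smallest that 3 against 3 allows. It was positive under every setting and with each library left out, from 0.31 to 0.63.

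Itga6, the other main laminin receptor subunit of neural precursors, had 4.48, 17.98 and 16.98 FPKM in siRNA libraries 1 to 3 and 18.6, 25.2 and 16.1 FPKM in control libraries 1 to 3. siRNA library 1 alone was low, and the other siRNA libraries lay within the control range. The log2 fold change was −0.74 (SE 0.43; Benjamini-Hochberg adjusted p = 0.383 by limma), and −0.16 without siRNA library 1 (limma, adjusted p = 0.706) and −1.34 with library weights (adjusted p = 0.1).

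The other alpha chains tested were Itgav, Itga5 and Itga4. Itgav, the RGD-binding partner of beta 5 and beta 8, had 14.2, 16.5 and 13.4 FPKM with the siRNA and 15.4, 21.6 and 14.2 FPKM in the controls, with overlapping groups. Itga5, the fibronectin receptor subunit, had 7.74, 7.77 and 6.36 FPKM with the siRNA and 6.91, 7.59 and 7.04 FPKM in the controls, which overlapped throughout. Itga4, whose chain binds fibronectin and VCAM1, had 1.36, 1.77 and 2.21 FPKM with the siRNA and 2.88, 2.12 and 3.21 FPKM in the controls. Only siRNA library 3 and control library 2 overlapped for Itga4, by 0.093 FPKM, and its log2 fold change was −0.43 (SE 0.16) and missed the threshold (Benjamini-Hochberg adjusted p = 0.24 by limma). In bulk RNA, fewer cells of a type and less RNA per cell cannot be told apart.

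The other 7 alpha subunits were below the minimum mean. Itga1, a collagen and laminin receptor subunit, was nearest to it at 0.637, 0.835 and 0.666 FPKM with the siRNA and 0.897, 1.23 and 1.00 FPKM in the controls, groups that did not overlap. The collagen receptor subunits Itga2 and Itga10 and the laminin receptor subunit Itga3 had means between 0.423 and 0.501 FPKM with the siRNA and between 0.376 and 0.554 FPKM in the controls. Itga8 had means of 0.249 FPKM with the siRNA and 0.156 FPKM in the controls, and Itga9 and Itga11 were under 0.05 FPKM in every library.

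Of the beta chains, Itgb1, the partner of most alpha chains found here, had 83.1, 92.4 and 82.4 FPKM in siRNA libraries 1 to 3 and 89.9, 101.9 and 98.0 FPKM in control libraries 1 to 3. The groups overlapped through siRNA library 2, and the log2 fold change of −0.17 (SE 0.10; Benjamini-Hochberg adjusted p = 0.404 by limma) lay close to the median of all entries. Itgb8, a latent TGF-beta receptor chain of neural precursors whose tail holds no NxxY pattern, had 26.7, 29.8 and 24.4 FPKM with the siRNA and 25.9, 31.4 and 24.5 FPKM in the controls, with a log2 fold change of −0.01 that turned positive under the scalings other than that as deposited.

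Itgb5, the vitronectin receptor chain, had 25.1, 23.8 and 18.7 FPKM in siRNA libraries 1 to 3 and 26.3, 34.2 and 7.56 FPKM in control libraries 1 to 3. Control library 3 alone was low, and the means were alike at 22.5 ± 3.38 FPKM with the siRNA and 22.7 ± 13.7 FPKM in the controls (SD, n = 3 each) while the log2 fold change was 0.21 (SE 0.45; Benjamini-Hochberg adjusted p = 0.82 by limma). Without control library 3 it was −0.41 (adjusted p = 0.4). Itga6 and Itgb5 were the 2 adhesion genes whose lowest library was under 0.5 times the next lowest, at 0.278 and 0.405 times. Of all entries tested, 195 (1.42%) had such a gap, and siRNA library 3 was the low library for 69 of them, siRNA library 1 for 39 and each other library for 19 to 23.

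The other 5 beta subunits were below the minimum mean. The leukocyte chains Itgb2 and Itgb7 and the platelet and vascular chain Itgb3 had means of 0.338, 0.264 and 0.173 FPKM with the siRNA and 0.231, 0.268 and 0.248 FPKM in the controls. The epithelial chains Itgb4 and Itgb6 had at most 0.0624 FPKM with the siRNA and at most 0.115 FPKM in the controls, and Itgb6 was listed at 0 in 5 of the 6 libraries.

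**Figure D3:**
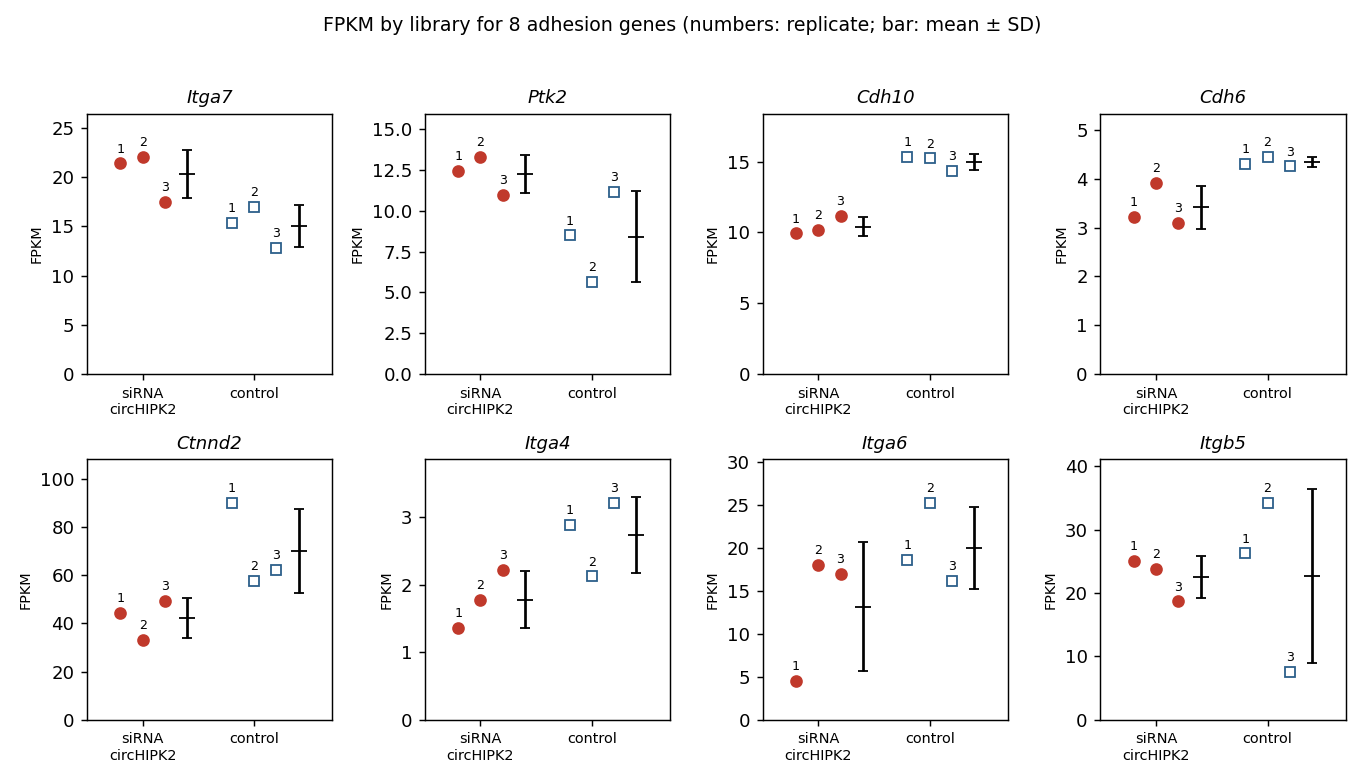
FPKM in each library for Itga7, Ptk2, Cdh10, Cdh6, Ctnnd2, Itga4, Itga6 and Itgb5, with siRNA circHIPK2 at the left and control at the right of each panel, replicate numbers above the points and the mean ± SD beside them. The groups do not overlap for Itga7, Cdh10, Cdh6 and Ctnnd2, and 1 low library sets Itga6 and Itgb5 apart.

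Of the 5 type I cadherins, Cdh2 and Cdh4 were expressed. Cdh2, N-cadherin, had 45.4, 47.6 and 37.7 FPKM in siRNA libraries 1 to 3 and 51.4, 50.3 and 46.5 FPKM in control libraries 1 to 3. Cdh4, R-cadherin, had 34.6, 39.1 and 34.3 FPKM with the siRNA and 39.4, 37.8 and 40.6 FPKM in the controls. Both overlapped between groups, with log2 fold changes of −0.18 (SE 0.11) and −0.12 (SE 0.09), within 0.07 of the median of all entries; the sign turned for Cdh4 with median-of-ratios and quantile scaling, and for both once the ribosomal RNA locus entries were removed. The epithelial cadherin Cdh1 was listed at 0 in the 3 siRNA libraries and had at most 0.011 FPKM in the controls, and the placental and muscle cadherins Cdh3 and Cdh15 had at most 0.0305 FPKM with the siRNA and 0.0467 FPKM in the controls.

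Type II cadherins sort neurons and progenitors into groups in the developing nervous system, and 6 of the 12 were tested. Cdh10, a cadherin of the brain, had 9.93, 10.2 and 11.1 FPKM in siRNA libraries 1 to 3 and 15.3, 15.2 and 14.3 FPKM in control libraries 1 to 3. Each group was tight, and the 2 were separated by 3.17 FPKM between the highest siRNA library and the lowest control. The mean was 10.4 ± 0.643 FPKM with the siRNA and 15.0 ± 0.555 FPKM in the controls (SD, n = 3 each), or 0.696-fold. The log2 fold change of −0.48 (SE 0.09) had an unadjusted p of 0.000612 and did not pass over all entries (Benjamini-Hochberg adjusted p = 0.106 by limma). With library weights it passed (adjusted p = 0.0281), in a fit that called 320 entries in place of 35. Its value was negative under every setting and with each library left out, from −0.53 to −0.30.

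Cdh6, an early regional cadherin of the neural tube, had 3.22, 3.92 and 3.10 FPKM with the siRNA and 4.31, 4.45 and 4.25 FPKM in the controls. The groups did not overlap, and the log2 fold change was −0.28 (SE 0.11) and missed the threshold (Benjamini-Hochberg adjusted p = 0.251 by limma). Cdh22, the most abundant type II cadherin, had 17.2, 18.1 and 15.4 FPKM with the siRNA and 18.3, 16.1 and 16.3 FPKM in the controls, and its log2 fold change of −0.002 (SE 0.10) was positive under the other scalings. Cdh11, a cadherin of mesenchyme and brain, had 8.61, 8.31 and 6.21 FPKM with the siRNA and 9.34, 10.1 and 8.46 FPKM in the controls, overlapping through siRNA library 1. Cdh19, known from Schwann cell precursors, and Cdh24 had log2 fold changes of −0.18 and −0.24, with means of 4.44 and 1.79 FPKM with the siRNA and 5.15 and 2.33 FPKM in the controls.

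Cdh13, T-cadherin, is anchored to the membrane by a lipid and lacks the tail that catenins bind. It was the most abundant cadherin, with 48.1, 52.5 and 42.4 FPKM in siRNA libraries 1 to 3 and 58.1, 56.2 and 49.4 FPKM in control libraries 1 to 3, which overlapped. Its log2 fold change was −0.19 (SE 0.11; Benjamini-Hochberg adjusted p = 0.392 by limma), and this turned to 0.00 with quantile scaling and 0.01 once the ribosomal RNA locus entries were removed. The other 6 type II cadherins and the atypical Cdh16, Cdh17, Cdh23 and Cdh26 had at most 0.0294 FPKM with the siRNA and 0.0758 FPKM in the controls. The highest of these values was for Cdh5, the endothelial cadherin, in control library 3. Of all 9 cadherins tested, 0 passed, 2 lay entirely lower with the siRNA, where 22.1% of all entries did so, and 8 had a log2 fold change below the median of all entries, with a median difference of −0.07 over the 9; 6 or 7 of the 9 lay below it under the other scalings. The summed neuron markers, mostly Map2, did not overlap and were lower in the siRNA libraries, in values that carry the shift of all entries. Of the 5 tested, 0 were called and 5 lay below the median of all entries. Entirely lower with the siRNA were 4 of the 5, where 22.1% of all entries were. Of the markers under the minimum mean, Rbfox3 and Stmn2 had higher means with the siRNA and Neurod1 a lower one. The part of the neuron markers in the cadherin values was not tested.

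Ctnnd2, delta-catenin, the p120-type catenin of the nervous system, had 44.4, 33.0 and 49.5 FPKM in siRNA libraries 1 to 3 and 90.1, 57.7 and 62.2 FPKM in control libraries 1 to 3. The groups did not overlap, and control library 1 was the highest of the 6. The mean was 42.3 ± 8.44 FPKM with the siRNA and 70.0 ± 17.6 FPKM in the controls (SD, n = 3 each), or 0.605-fold. The log2 fold change was −0.70 (SE 0.20) and missed the threshold (Benjamini-Hochberg adjusted p = 0.185 by limma; exact permutation p = 0.1). It ran from −0.83 to −0.51 over the other settings and left-out libraries.

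The widely expressed catenins Ctnna1 and Ctnnd1 had nearly equal means in both groups. Ctnna1, alpha E-catenin, which links cadherins to actin, had 40.0, 42.8 and 37.0 FPKM with the siRNA and 39.0, 41.9 and 38.3 FPKM in the controls. Ctnnd1, p120-catenin, which stabilises cadherins at the membrane, had 36.5, 38.8 and 33.9 FPKM with the siRNA and 37.0, 34.7 and 37.5 FPKM in the controls. Both had log2 fold changes of 0.00 in size (SE 0.10 and 0.09), 0.13 and 0.12 above the median of all entries, and under median-of-ratios scaling their siRNA libraries lay entirely above the controls. In GENCODE M21 the entry Gm28635 lies over Ctnnd1 on the same strand and had 42.2 to 48.2 FPKM with the siRNA and 47.4 to 51.8 FPKM in the controls, so reads of the 2 may be split.

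Ctnna2, the neuronal alpha-catenin, had 5.18, 6.79 and 4.28 FPKM with the siRNA and 7.02, 6.03 and 6.98 FPKM in the controls, overlapping through siRNA library 2 (log2 fold change −0.27, SE 0.15; Benjamini-Hochberg adjusted p = 0.36 by limma). Jup, plakoglobin, had 8.80 to 10.9 FPKM with the siRNA and 9.68 to 14.3 FPKM in the controls (log2 fold change −0.18, SE 0.15). Of the 5 catenins, 0 passed and 1 lay entirely lower with the siRNA, where 22.1% of all entries did so.

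Of the 8 focal adhesion genes 0 passed, and 6 lay above the median of all entries, with a median difference of 0.07 over the 8; with no filter on low entries 3 lay above. Ptk2, focal adhesion kinase, which signals from clustered integrins, had 12.5, 13.3 and 10.98 FPKM in siRNA libraries 1 to 3 and 8.50, 5.63 and 11.2 FPKM in control libraries 1 to 3. Control library 3 lay above siRNA library 3, and control library 2 was the lowest. The mean was 12.2 ± 1.18 FPKM with the siRNA and 8.43 ± 2.76 FPKM in the controls (SD, n = 3 each), 1.45-fold apart, with a log2 fold change of 0.53 (SE 0.20; Benjamini-Hochberg adjusted p = 0.244 by limma) and of 0.30 without control library 2. Gm7908, a processed pseudogene on the same strand within Ptk2, had 5.54 to 7.14 FPKM with the siRNA and 4.94 to 6.74 FPKM in the controls. Genes on the opposite strand overlap 5 others, namely Lrrtm2 at Ctnna1, Lrrtm1 at Ctnna2, Rrp8 and Taf10 at Ilk, Creb3 at Tln1 and Ap3m1 at Vcl, and reads cannot be told apart there if strand was not used.

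Fermt2, kindlin-2, which binds the second tail motif of the beta chain, had 62.0, 68.6 and 51.7 FPKM with the siRNA and 58.3, 67.2 and 60.3 FPKM in the controls. Ilk, integrin-linked kinase, which bridges beta tails to parvin, had 52.9, 67.3 and 55.6 FPKM with the siRNA and 62.4, 61.1 and 62.6 FPKM in the controls. Both overlapped fully, with log2 fold changes of −0.03 and −0.09 that were positive under median-of-ratios and quantile scaling and with the ribosomal RNA locus entries removed.

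Pxn, the scaffold paxillin, had 17.96, 19.96 and 12.5 FPKM with the siRNA and 21.5, 20.5 and 16.5 FPKM in the controls. Parva, alpha-parvin, had 12.2, 12.7 and 9.87 FPKM with the siRNA and 11.5, 9.31 and 13.3 FPKM in the controls, and Vcl, vinculin, had 8.93, 8.28 and 7.91 FPKM with the siRNA and 8.33, 7.84 and 8.58 FPKM in the controls. All 3 overlapped between the groups. The talin genes Tln1 and Tln2, whose products activate integrins by binding the first tail motif, had means of 16.1 and 3.18 FPKM with the siRNA and 16.8 and 3.65 FPKM in the controls, with log2 fold changes of −0.06 and −0.15.

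Shares within a family are free of the scaling between libraries, so the gene with the highest mean over the 6 libraries in each family was also taken as a percentage of its family's summed FPKM. Among the alpha chains this choice rests on the siRNA libraries: in the controls Itga6 and Itgav had larger mean shares, at 30.7% and 26.2%, than Itga7, at 23.4%. The difference in the Itga7 share is therefore given as a description, and its permutation p is used only in the adjustment over all the shares. Itga7 made up 41.5%, 32.1% and 29.8% of alpha chain FPKM in siRNA libraries 1 to 3 and 25.0%, 22.3% and 22.8% in control libraries 1 to 3. The groups did not overlap, and the mean share was 11.1 percentage points higher with the siRNA, or 7.63 points without siRNA library 1, in which Itga6 was low. Itga6 itself made up 21.3% ± 11.0 of the alpha chain sum with the siRNA and 30.7% ± 2.20 in the controls (SD, n = 3 each).

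The catenin sum holds the 5 catenins of the set and leaves out beta-catenin, Ctnnb1. No share was taken with Ctnnb1 in the sum, so the values below hold for these 5 genes only. Ctnnd2 made up 32.7%, 25.0% and 37.1% of this sum in siRNA libraries 1 to 3 and 49.1%, 37.3% and 40.2% in control libraries 1 to 3. The groups did not overlap, with siRNA library 3 and control library 2 at nearly the same share, and the mean was 10.6 percentage points lower with the siRNA (difference −10.6). Gm28635, which lies over Ctnnd1, is not in the sum, so any reads of Ctnnd1 assigned to it are missing there. For the Ctnnd2 share the exact two-sided permutation p was 0.1, the smallest possible. Adjusted over the 4 shares, that of Itga7 among them, it was 0.2 (Benjamini-Hochberg). Among the 5 catenins of the set Ctnnd2 had the highest mean in both groups. Ctnnb1, outside the set, had higher means, at 112 FPKM with the siRNA and 179 FPKM in the controls.

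In the other 2 families the leading gene's share overlapped between the groups. Itgb1 made up 63.2% ± 2.09 of beta chain FPKM with the siRNA and 66.1% ± 7.66 in the controls (SD, n = 3 each; exact permutation p = 0.8), where control library 3, with its low Itgb5, stood at 74.8%. Cdh13 made up 27.7% ± 0.441 of cadherin FPKM with the siRNA and 27.8% ± 1.29 in the controls (exact permutation p = 1). Summed cadherin FPKM was 172 ± 15.6 with the siRNA and 196 ± 7.73 in the controls, in values that carry the shift of all entries. The groups did not overlap, but the highest siRNA library, at 186.9, lay just under the lowest control, at 187.9.

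**Figure D4:**
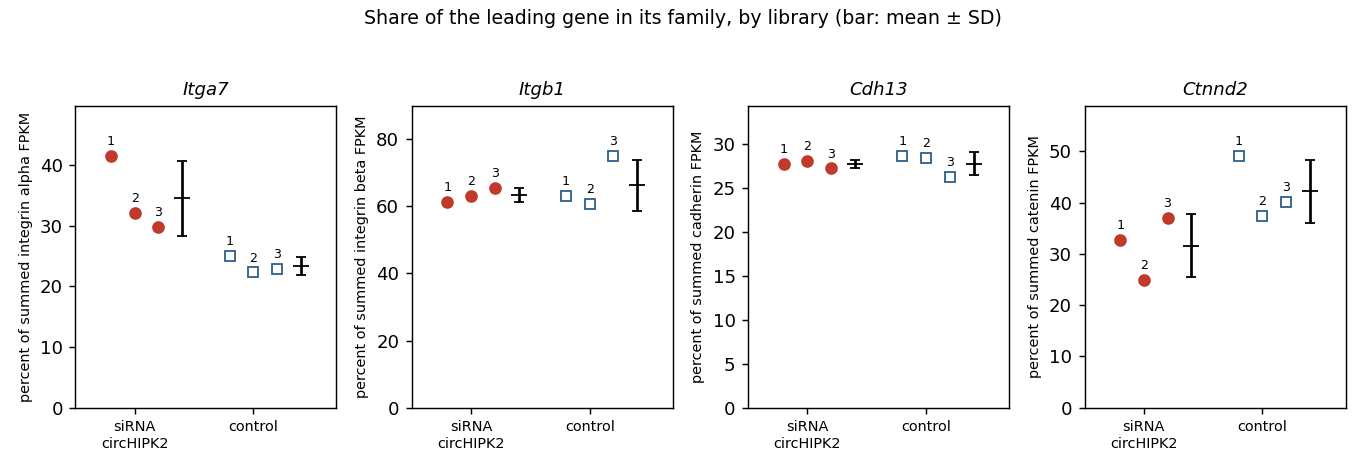
Share of Itga7, Itgb1, Cdh13 and Ctnnd2 in the summed FPKM of the integrin alpha, integrin beta, cadherin and catenin genes, in percent, with siRNA circHIPK2 at the left and control at the right of each panel and the mean ± SD beside the points. The catenin sum holds the 5 catenins of the set and leaves out Ctnnb1. The groups do not overlap for Itga7, at 29.8% to 41.5% with the siRNA and 22.3% to 25.0% in the controls, or for Ctnnd2, and overlap for Itgb1 and Cdh13.

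Partner genes outside the set were counted in 3 lists, and 0 of their tested genes passed. Of 30 integrin adaptors, kinases and actin linkers tested, 2 were higher and 5 lower at an unadjusted p below 0.05, where 1.83% and 15.5% of all entries were, and the list median lay 0.02 below that of all entries. The tetraspanin gene Cd81 had 84.6, 115.3 and 82.5 FPKM with the siRNA and 457, 212 and 119 FPKM in the controls, which did not overlap but spread widely (Benjamini-Hochberg adjusted p = 0.207 by limma). Bsg, basigin, had 139, 136 and 113 FPKM with the siRNA and 156, 148 and 153 FPKM in the controls.

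Of 15 matrix ligands of integrins tested, 0 were higher and 2 lower at that threshold, beside the same 1.83% and 15.5% of all entries, and the list median lay 0.10 above that of all entries. Mfge8, an RGD ligand of the alpha v integrins, had 238, 276 and 150.03 FPKM with the siRNA and 265, 259.96 and 264 FPKM in the controls, and Tnc, tenascin-C, had 56.2, 72.6 and 72.8 FPKM with the siRNA and 78.5, 63.9 and 76.5 FPKM in the controls. Both overlapped. Vtn, vitronectin, the ligand of alpha v beta 5 and a product of the liver, was under the minimum mean and is named here because of its values. It had 0.0403, 0 and 0 FPKM with the siRNA and 1.01, 0.569 and 0.536 FPKM in the controls, the same libraries in which the hepatocyte markers were low and high; the part of those cells or that RNA in the Vtn values was not tested.

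Of 17 cadherin junction partners tested, 0 were higher and 4 lower at an unadjusted p below 0.05, again beside 1.83% and 15.5% of all entries, and the list median lay 0.04 above that of all entries. Ctnnb1, beta-catenin, which links cadherin tails to alpha-catenin, had 88.6, 150.4 and 95.8 FPKM with the siRNA and 184, 146 and 206 FPKM in the controls, overlapping through siRNA library 2 (log2 fold change −0.70; Benjamini-Hochberg adjusted p = 0.195 by limma). Tjp1, the scaffold ZO-1, had 54.0, 61.1 and 48.4 FPKM with the siRNA and 52.5, 56.6 and 56.2 FPKM in the controls.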

How the data were processed

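The authors deposited 1 table of FPKM values for 54884 gene symbols in 6 libraries. The tools HISAT, StringTie and edgeR and the build mm9 are named, without roles, per the submitters' processing notes. Not given in the sources used here are versions, the annotation, and whether strand and the molecular identifiers in the adapters were used. Reads of overlapping genes or copies may therefore be split. The adhesion genes, lists and alternatives were chosen with earlier results of these data known.

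For entries averaging 1 FPKM or more, log2(FPKM + 1) was compared between siRNA and control with limma 3.58.1 in R 4.3.3 (mean-variance trend, two-sided, Benjamini-Hochberg over all 13702 entries, called below 0.05). Fold changes on this scale understate those of weakly expressed genes. These steps were tested on simulated data first. Exact permutation tests of 3 against 3 libraries were two-sided.

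Values in every library are given for the 3 most abundant tested genes of each role, the 6 highest and 6 lowest log2 fold changes, and genes with siRNA libraries entirely above. In the partner lists the 2 most abundant genes are named. Depth was estimated from low values of genes that have a single transcript of 500 nt or longer. Of these, 39.6% to 43.6% were whole multiples of 1 fragment to within 0.05 (10% by chance). All 55 symbols were in GENCODE M21 (GRCm38), used for overlaps and for coding sequence, since no table of protein sequences was used here. Alternatives were other pseudocounts, filters, scalings and moderation, a replicate block, and each library left out.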

Additional observations from a re-analysis of the deposited data

How the results depend on the processing

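The count of 0 adhesion genes called held in every alternative and left-out library except library weights, which called Cdh10. Over all entries 35 were called, against 22 at a minimum mean of 5 FPKM, 320 with library weights, and 8 to 35 with 1 library left out, with 8 without siRNA library 3 and 22 without control library 3. The median of the adhesion genes relative to all entries was −0.04, and 0.00066 with no filter, 0.0489 at a minimum mean of 5 FPKM, 0.00856 with quantile scaling, −0.0111 with library weights and −0.0637 to 0.0447 with 1 library left out, highest without control library 2. Correlations of deviations did not settle whether replicate numbers paired the libraries. They were 0.046, 0.015 and 0.13 for same-numbered libraries, and ran from −0.17 to 0.13 over all pairs. Control libraries 1 and 3 correlated best with the same-numbered siRNA library, and control library 2 with siRNA library 1 (0.12). With the replicate number as a block 46 entries and 0 adhesion genes were called.

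With quantile scaling the sign turned for Cdh13 (0.000204), Cdh4 (0.0376), Cdh22 (0.136), Ctnnd1 (0.163), Fermt2 (0.159), Ilk (0.101), Tln1 (0.0741), Itgb1 (0.0163) and Itgb8 (0.140). With the ribosomal RNA locus entries removed and columns rescaled the sign turned for Cdh13 (0.0103), Cdh2 (0.0208), Cdh4 (0.0789), Cdh22 (0.200), Ctnnd1 (0.203), Jup (0.00676), Fermt2 (0.171), Ilk (0.116), Tln1 (0.137), Tln2 (0.00573), Itgav (0.0104), Itgb1 (0.0392) and Itgb8 (0.189). With median-of-ratios scaling the sign turned for Cdh4 (0.0113), Cdh22 (0.129), Ctnnd1 (0.134), Fermt2 (0.103), Ilk (0.0476), Tln1 (0.0679) and Itgb8 (0.119). With columns rescaled to a sum of 1000000 the sign turned for Cdh22 (0.0295), Ctnnd1 (0.0302) and Itgb8 (0.0167). With library weights the sign turned for Fermt2 (0.0132) and Itgb8 (0.0171). With 1 library left out the log2 fold changes ran across 0 for Cdh22 (from −0.0512 to 0.0602), Ctnna1 (from −0.0452 to 0.0575), Ctnnd1 (from −0.0469 to 0.0460), Fermt2 (from −0.125 to 0.0756), Parva (from −0.0978 to 0.138), Vcl (from −0.0242 to 0.0542), Itga5 (from −0.0274 to 0.0991), Itgb8 (from −0.0870 to 0.0879) and Itgb5 (from −0.409 to 0.612). The share differences ran across 0 for Itgb1 (from −5.70 to 1.43 points) and Cdh13 (from −0.81 to 0.36 points). None of these genes was called in any fit, and the cause of the differences was not tested. Depth limits the genes with the lowest values, since a single fragment adds up to 0.0543 FPKM for a transcript of 1 kb and less for a longer one.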
